A study of Bos taurus with 16 samples.

Results

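The genes described here are those whose transcript level was lower with TGF-β2 in each of 8 pairs of libraries of bovine superficial zone articular chondrocytes, and they were chosen by measured values. The level of a gene in a library was its estimated read count divided by the total of that library and multiplied by 1000000 (CPM), on the scale log2(CPM+1). A pair joined the libraries of the same calf and the same shRNA in condition A and condition AB, and a gene was a member if condition AB minus condition A was -1 or less in all 8 pairs. Of 19454 genes, 58 met this threshold, 7 of them were among 10 genes left out by name, and 51 were members. The differences with TGF-β2 that follow for the members are therefore descriptions without a test. The comparison of shCreb5 with shScramble was not part of the threshold and was tested over all genes. Among the genes left out by name that met the threshold, though, are some that the paper reports as reduced by the knockdown. Shares of the members in that comparison are therefore shares without these genes.

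The study asked which transcripts of these chondrocytes depend on the transcription factor CREB5. Cells came from the surface layer of the femoropatellar cartilage of calves aged 1–2 weeks, obtained at slaughter, and were infected with lentivirus that expressed either a scrambled control hairpin (shScramble) or a hairpin against Creb5 (shCreb5). Selection used 0.8 μg/ml puromycin and lasted 5 days. Condition A was a further 48 h on low attachment plates with 100 ng/ml TGF-α, and condition AB had 20 ng/ml TGF-β2 in addition. RNA of each culture was sequenced. The 4 groups were shScramble in condition A, shScramble in condition AB, shCreb5 in condition A and shCreb5 in condition AB, each with 1 library from each of calves 1 to 4, and all 16 libraries shared TGF-α, serum, puromycin selection and lentiviral infection. Each culture was a pool of infected cells and 1 hairpin stood for the knockdown, so an effect of this hairpin on other transcripts cannot be told apart from that of lower CREB5. In bulk RNA, fewer cells of a type and less RNA per cell cannot be told apart either.

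TGF-β2 binds a pair of serine/threonine kinase receptors that phosphorylate SMAD2 and SMAD3, which enter the nucleus with SMAD4 and raise or lower transcription together with other DNA-binding factors. In articular cartilage this pathway is known for keeping chondrocytes from hypertrophy and for raising lubricin, the product of PRG4, in the surface layer. TGF-α is a ligand of the epidermal growth factor receptor, and CREB5 is a basic leucine zipper factor of the CREB/ATF family.

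CREB5 itself was at 153, 69.6, 78.0 and 116 CPM in shScramble cells and 100.0, 43.5, 55.5 and 80.4 CPM in shCreb5 cells of calves 1 to 4 in condition A. In condition AB its level was 80.9, 52.8, 58.2 and 79.8 CPM in shScramble cells and 43.3, 33.1, 26.2 and 33.9 CPM in shCreb5 cells. The shCreb5 library was lower than the shScramble library of the same calf in all 4 calves under both conditions, while the ranges of the groups overlapped in condition A and did not overlap in condition AB. The knockdown was partial, with a log2 fold change of -0.54 ± 0.079 (SE; unadjusted p = 2.6e-04, edgeR adjusted p = 0.337) in condition A and -0.96 ± 0.10 (SE; unadjusted p = 2.9e-05, edgeR adjusted p = 0.124) in condition AB, each lower in 4 of 4 calves. DESeq2 called CREB5 lower under both conditions.

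Markers of the labelled cell type were present. Identifiers could be paired with symbols for 2 of 11 chondrocyte markers and 5 of 6 superficial zone markers, so COL2A1, ACAN and SOX9 were not examined. COL11A1, a fibrillar collagen of cartilage, was at 1888, 11150.5, 1739 and 4509 CPM in shScramble cells and 3057, 12178, 864 and 2087 CPM in shCreb5 cells of calves 1 to 4 in condition A, and the proteoglycan link protein HAPLN1 lay between 965 and 8037 CPM over the 16 libraries. PRG4, the lubricin gene, was at 15495, 4195, 18968 and 10619 CPM in shScramble cells and 9830.2, 2397, 13229 and 6606 CPM in shCreb5 cells in condition A and 56858, 12410.5, 54265 and 45395 CPM in shScramble cells and 25237, 5831, 49228 and 35961 CPM in shCreb5 cells in condition AB. It had the highest mean CPM of the superficial zone markers, and calf 2 had the lowest PRG4 and the highest COL11A1 of the 4 calves in each group. Library totals ran from 14710867 counts (shScramble, condition AB, calf 4) to 21853634 counts (shCreb5, condition A, calf 2).

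The 51 members were 0.262% of the genes in the table. Their levels averaged over the 16 libraries ran from 3.29 to 652 CPM with a median of 31.1 CPM, against a median of 5.45 CPM over all 19454 genes, and all 51 had at least 10 counts on average. The mean of the 8 paired log2 differences ran from -1.30 to -3.71 with a median of -1.81, and was below -2 for 17 members and below -3 for 5. Over all genes the median of this mean was -0.044. Another 54 genes met the threshold in 7 of the 8 pairs and 70 met it in 6, and 63 genes were higher by 1 or more in all 8 pairs.

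The depth of the difference varied between the 8 pairs. The median difference over the members was -1.74, -1.51, -1.58 and -1.68 in the shScramble pairs of calves 1 to 4 and -1.74, -1.55, -1.61 and -2.33 in the shCreb5 pairs. The shCreb5 pair of calf 4 stood apart, with the deepest difference of the 8 pairs in 20 of the 51 members and the smallest in 0. The pairs of shScramble calf 3 and shScramble calf 2 held the smallest difference for 13 and 10 members. Without calf 4 the threshold was met by 54 genes, without calf 1 by 62, and without calf 2 or calf 3 by 91 and 90, with the 10 named genes left out each time.

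**Figure D1:**
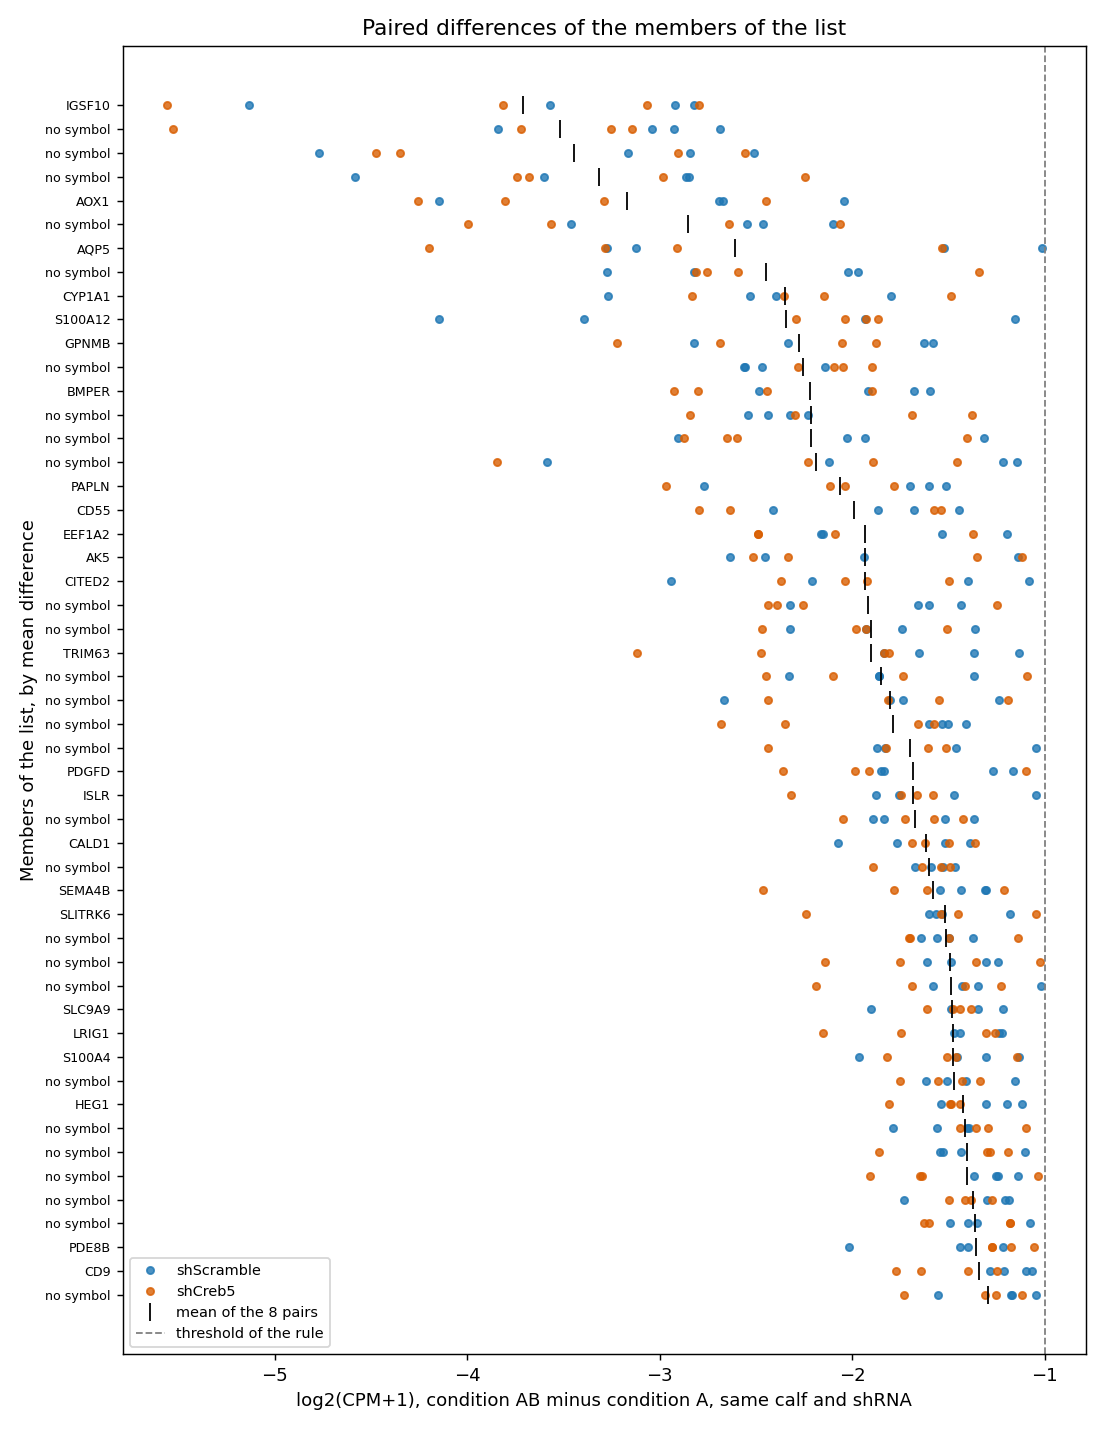
Paired log2(CPM+1) differences, condition AB minus condition A, of the 51 members, with 4 shScramble pairs (blue), 4 shCreb5 pairs (orange), the mean of the 8 pairs (black tick) and the threshold of -1 (dashed line). All points lie left of the line because the rule required it, and the means run from -3.71 for IGSF10 to -1.30.

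Several members lay close to the threshold, and 27 of the 51 had a largest difference within 0.2 of it. The member nearest on the inside was AQP5, a water channel, with a largest difference of -1.02 in the shScramble pair of calf 2, and the next 2 were genes without a symbol, at -1.02 and -1.02. Nearest on the outside were CRISPLD1, which encodes a secreted cysteine-rich protein, with a largest difference of -0.998, VIT, which encodes the matrix protein vitrin and is a superficial zone marker, at -0.99, and CD36, a fatty acid transporter, at -0.99. CRISPLD1 and VIT missed the threshold in the shCreb5 pair of calf 3 only, and in the other 7 pairs their differences were -2.35 or lower and -2.01 or lower.

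Membership also depended on how libraries were scaled. PRG4 alone took 0.42% to 1.90% of the counts of the shScramble libraries in condition A and between 1.24% and 5.69% of those in condition AB, and the 10 genes with the most counts in a library took a larger share in condition AB in each of the 8 pairs, for example 13.1% and 20.3% in shScramble cells of calf 1. Scaling by the trimmed mean of M values (TMM) in place of column totals raised the paired differences by 0.087 to 0.33 on the log2 scale (median 0.15), and 28 of the 51 members then met the threshold in all pairs. Those with a symbol were AOX1, BMPER, CALD1, CD55, CYP1A1, EEF1A2, GPNMB, IGSF10, PAPLN, SLC9A9 and TRIM63. The other 13 members with a symbol, among them HEG1, PDGFD, CD9, AQP5, ISLR and S100A12, stayed negative in every pair and had a largest difference between -0.76 and -0.98. DESeq2 size factors also left 28.

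**Figure D2:**
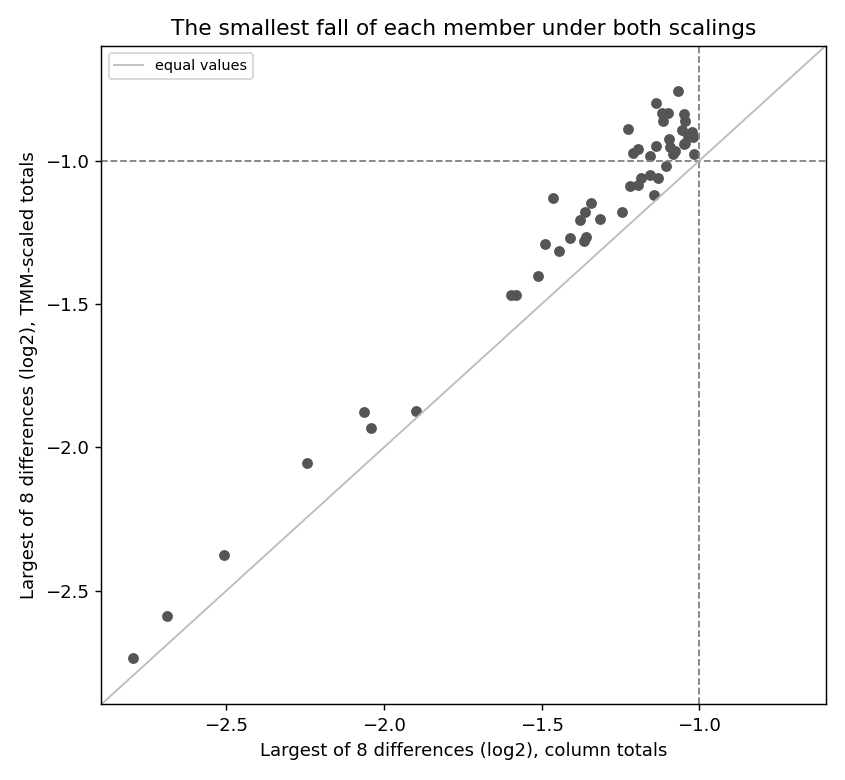
Largest of the 8 paired differences (log2) of each of the 51 members, with libraries scaled by column totals (horizontal axis) and by TMM (vertical axis). Dashed lines mark the threshold of -1 and the grey line equal values. All points lie above the line of equal values, and 28 points remain at or below -1 with TMM.

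Of the 51 members, 24 could be given a symbol. Symbols were at hand only for 3157 genes, from gene tables that had been sorted by the significance of the knockdown effect, so that a member with a low knockdown p was more likely to have one. The 27 members without a symbol had mean differences of -1.30 to -3.52 (median -1.79), against a median of -1.92 for the 24 with a symbol. The deepest of them, ENSBTAG00000006037, averaged -3.52 ± 0.90 (SD, n = 8 pairs), and the one with the highest mean CPM, ENSBTAG00000017448, averaged -3.32 ± 0.72 (SD, n = 8 pairs). Read counts were not divided by transcript length, so a higher CPM for 1 gene than for another does not mean more transcripts.

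Among enzymes of oxidation, the list held AOX1, an aldehyde oxidase, and CYP1A1, a cytochrome P450 induced through the aryl hydrocarbon receptor. In condition A, AOX1 was at 213, 49.6, 156 and 99.4 CPM in shScramble cells and 186, 42.5, 268 and 201 CPM in shCreb5 cells of calves 1 to 4. Its level in condition AB was 11.1, 11.3, 23.6 and 14.5 CPM in shScramble cells and 12.4, 6.96, 26.5 and 9.56 CPM in shCreb5 cells. All 8 condition AB libraries lay below all 8 condition A libraries, calf 2 was lowest in each condition A group, and the mean difference was -2.89 ± 0.89 (SD, n = 4) in shScramble pairs and -3.45 ± 0.77 (SD, n = 4) in shCreb5 pairs. CYP1A1 was at 32.3, 53.3, 14.3 and 49.3 CPM in shScramble cells and 21.4, 41.7, 6.56 and 15.05 CPM in shCreb5 cells in condition A. With TGF-β2 it was at 8.57, 8.39, 1.90 and 4.21 CPM in shScramble cells and 6.99, 7.36, 0.706 and 1.25 CPM in shCreb5 cells. Calf 3 was lowest in every group, the ranges of the conditions overlapped between calves, and the paired difference averaged -2.35 ± 0.56 (SD, n = 8 pairs).

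Other intracellular enzymes were AK5, an adenylate kinase, and PDE8B, a phosphodiesterase that hydrolyses cyclic AMP. AK5 lay between 2.56 and 63.9 CPM in condition A and between 0.395 and 10.4 CPM in condition AB, with a mean difference of -1.94 ± 0.64 (SD, n = 8 pairs), and its levels were highest in calf 3 in each group. PDE8B lay between 8.16 and 14.1 CPM in condition A and between 2.38 and 5.76 CPM in condition AB, and its mean difference of -1.36 ± 0.29 (SD, n = 8 pairs) was among the smaller ones of the list. TRIM63, a muscle RING-finger ubiquitin ligase, was low throughout, between 3.15 and 14.4 CPM in condition A and between 0.568 and 1.71 CPM in condition AB. AK5, PDE8B, TRIM63, LRIG1, SEMA4B, SLITRK6, SLC9A9 and CITED2 fell outside the rule that chose the genes to name, and were named after their values were seen.

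Some members are known from growth factor signalling, and whether the list holds more such genes than other lists would was not tested. BMPER is a secreted protein that binds bone morphogenetic proteins and modulates their signalling, and it was the only member found in any of the 14 pathway lists examined. Its level in condition A was 157, 153, 68.6 and 110.5 CPM in shScramble cells and 198, 178, 129.7 and 227 CPM in shCreb5 cells of calves 1 to 4. In condition AB it was at 27.1, 47.3, 17.4 and 35.8 CPM in shScramble cells and 35.5, 47.1, 16.2 and 31.7 CPM in shCreb5 cells. The conditions did not overlap, calf 3 was lowest in all 4 groups, and the mean difference was -1.92 ± 0.40 (SD, n = 4) in shScramble pairs and -2.52 ± 0.46 (SD, n = 4) in shCreb5 pairs.

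PDGFD, a ligand of the platelet-derived growth factor receptor β, was at 41.3, 28.2, 69.4 and 27.4 CPM in shScramble cells and 22.2, 17.8, 49.2 and 21.9 CPM in shCreb5 cells in condition A. With TGF-β2 added, PDGFD was at 17.9, 7.09, 18.7 and 10.8 CPM in shScramble cells and 9.83, 3.75, 12.4 and 3.47 CPM in shCreb5 cells. Calf 3 was highest in every group, and the highest condition AB library lay just above the lowest condition A library. LRIG1, a transmembrane protein that restrains the epidermal growth factor receptor, lay between 50.6 and 134 CPM in condition A and between 19.9 and 37.5 CPM in condition AB without overlap of the conditions. SEMA4B, a transmembrane semaphorin, lay between 24.4 and 65.0 CPM in condition A and between 5.38 and 20.6 CPM in condition AB. SLITRK6, a leucine-rich repeat membrane protein known from neurons, was a low-level member, between 2.20 and 11.4 CPM in condition A and between 0.0987 and 3.47 CPM in condition AB.

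Other proteins of the cell surface or membrane included GPNMB, CD9, CD55, HEG1, AQP5 and SLC9A9. GPNMB, a transmembrane glycoprotein, was at 715, 281, 791 and 656 CPM in shScramble cells and 454, 280.1, 703 and 915 CPM in shCreb5 cells of calves 1 to 4 in condition A. In condition AB its values were 100.3, 90.4, 264 and 129 CPM in shScramble cells and 69.6, 75.4, 169 and 97.0 CPM in shCreb5 cells. The conditions did not overlap, and the mean difference was -2.09 ± 0.60 (SD, n = 4) in shScramble pairs and -2.46 ± 0.62 (SD, n = 4) in shCreb5 pairs. CD9, a tetraspanin, was at 768, 489, 1125 and 696 CPM in shScramble cells and 804, 574, 1905 and 1151 CPM in shCreb5 cells in condition A. It was at 358, 233, 484 and 285 CPM in shScramble cells and 235, 241, 723 and 368 CPM in shCreb5 cells in condition AB. CD9 had the highest mean CPM of the members and a comparatively small mean difference, -1.34 ± 0.25 (SD, n = 8 pairs), and calf 3 was highest in each group.

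CD55, which accelerates the decay of complement convertases on the cell surface, spanned a wide range, between 36.2 and 698 CPM in condition A and between 11.8 and 234 CPM in condition AB, with calf 2 lowest and calf 3 highest in each group. Its mean difference was -1.99 ± 0.54 (SD, n = 8 pairs). HEG1, a transmembrane protein with EGF-like domains that acts at endothelial junctions, was at 81.9, 23.0, 42.5 and 63.4 CPM in shScramble cells and 63.0, 17.3, 28.6 and 35.1 CPM in shCreb5 cells in condition A. In condition AB it was at 35.2, 10.1, 16.6 and 21.1 CPM in shScramble cells and 17.2, 5.73, 9.53 and 11.9 CPM in shCreb5 cells. Calf 1 was highest and calf 2 lowest in all 4 groups, so the groups overlapped although every paired difference was at least as low as -1.12.

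AQP5, the water channel named above, was at 23.9, 2.34, 11.6 and 25.5 CPM in shScramble cells and 28.6, 3.89, 26.8 and 49.2 CPM in shCreb5 cells in condition A. With TGF-β2 it was at 1.57, 0.653, 3.39 and 2.04 CPM in shScramble cells and 2.05, 0.691, 2.71 and 1.73 CPM in shCreb5 cells. Calf 2 was lowest in each group, and the paired differences ran from -1.02 to -4.20, the widest spread of the 51 members. SLC9A9, a sodium/proton exchanger of endosomes, lay between 15.01 and 73.6 CPM in condition A and between 5.13 and 24.7 CPM in condition AB, with a mean difference of -1.48 ± 0.20 (SD, n = 8 pairs).

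Secreted proteins included IGSF10, a large protein of the immunoglobulin superfamily, which had the deepest mean difference of the list. It was at 288, 24.5, 37.3 and 60.2 CPM in shScramble cells and 236, 28.9, 53.1 and 94.6 CPM in shCreb5 cells of calves 1 to 4 in condition A. In condition AB it was at 7.24, 2.61, 4.06 and 4.15 CPM in shScramble cells and 4.04, 3.31, 5.47 and 5.80 CPM in shCreb5 cells. Calf 1 was far above the other calves in condition A with either shRNA, whereas in condition AB all 8 libraries lay within 2.61 to 7.24 CPM, and the mean difference was -3.61 ± 1.07 (SD, n = 4) in shScramble pairs and -3.81 ± 1.24 (SD, n = 4) in shCreb5 pairs.

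PAPLN, which encodes the extracellular matrix glycoprotein papilin, was at 24.7, 29.0, 17.5 and 18.6 CPM in shScramble cells and 16.7, 16.1, 9.16 and 16.2 CPM in shCreb5 cells in condition A. In condition AB it was at 2.77, 9.51, 5.09 and 5.03 CPM in shScramble cells and 3.07, 3.95, 1.47 and 1.195 CPM in shCreb5 cells. Calf 2 of the shScramble cells in condition AB overlapped with calf 3 of the shCreb5 cells in condition A. ISLR, a secreted leucine-rich repeat protein, lay between 36.8 and 189.6 CPM in condition A and between 11.6 and 55.4 CPM in condition AB, and calf 3 had the lowest level in each group.

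S100 proteins and an actin regulator were also present. S100A12, a calcium-binding protein known from phagocytes, was at 1.44, 91.4, 94.3 and 60.1 CPM in shScramble cells and 5.45, 105, 86.7 and 16 CPM in shCreb5 cells in condition A. In condition AB its values were 0.0922, 23.2, 8.07 and 2.45 CPM in shScramble cells and 0.568, 28.0, 16.9 and 3.47 CPM in shCreb5 cells. Calf 1 was lowest in every group and close to 0 in condition AB, while calf 2 was highest in 3 of the 4 groups. S100A4 lay between 122 and 1093 CPM in condition A and between 50.7 and 308 CPM in condition AB, with calf 2 lowest in each group, and its mean difference was -1.47 ± 0.30 (SD, n = 8 pairs). CALD1, which encodes caldesmon and binds actin, lay between 345 and 708 CPM in condition A and between 131 and 219 CPM in condition AB without overlap, with a mean difference of -1.62 ± 0.23 (SD, n = 8 pairs).

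EEF1A2 encodes an elongation factor of translation, and CITED2 a coactivator that binds CBP and p300. In condition A, EEF1A2 was at 390.1, 68.8, 124 and 140.1 CPM in shScramble cells and 492, 113, 651 and 992 CPM in shCreb5 cells. In condition AB it was at 86.4, 23.1, 53.6 and 30.7 CPM in shScramble cells and 86.6, 25.8, 250.4 and 176 CPM in shCreb5 cells. Calf 2 was lowest in each group, and calves 3 and 4 carried high values in shCreb5 cells. EEF1A2 has a close paralog, EEF1A1, and how reads were divided between both was not tested. CITED2 lay between 17.7 and 168 CPM in condition A and between 7.83 and 21.0 CPM in condition AB, with its highest values in calf 1.

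**Figure D3:**
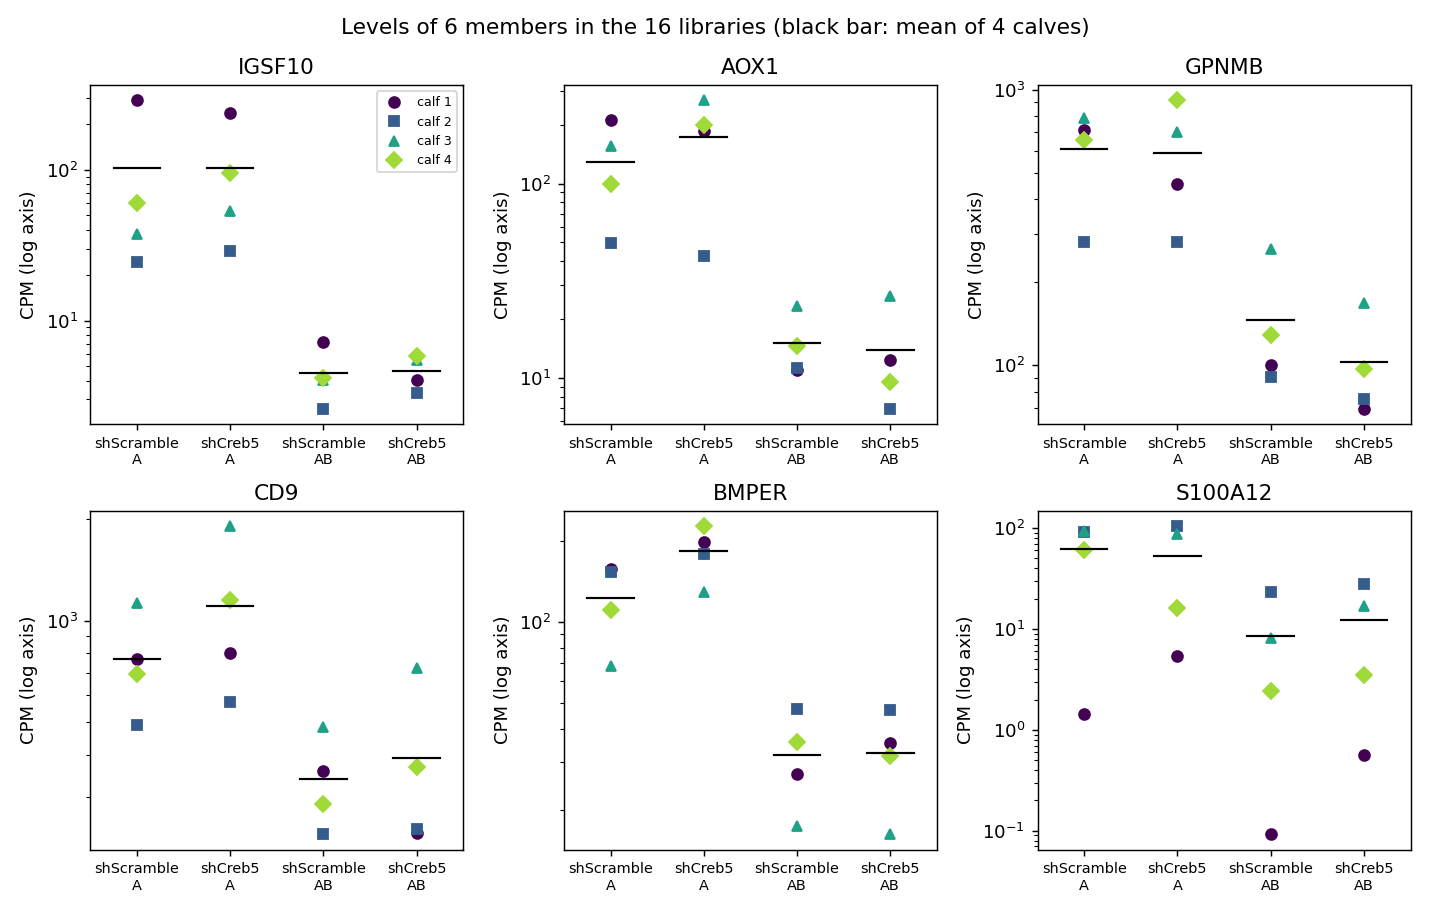
CPM on a log axis of IGSF10, AOX1, GPNMB, CD9, BMPER and S100A12 in the 16 libraries, by shRNA and condition, with 1 symbol for each calf and a black bar for the mean of 4 calves. For IGSF10, AOX1, GPNMB and BMPER the 8 condition AB points lie below the 8 condition A points, and S100A12 spans 0.0922 to 105 CPM.

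Nothing in the choice of the members used their position or their family. All 24 members with a symbol were found in the RefSeq gene table of the bovine assembly ARS-UCD2.0, on 13 chromosomes, and that table was used for names and gene order only. S100A4 and S100A12 had 11 genes between them on chromosome 3, and CYP1A1 and ISLR had 13 genes between them on chromosome 21. The next closest members were IGSF10 and SLC9A9, with 67 genes between them, so no pair of members with a symbol was adjacent.

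In condition A the members went both ways with shCreb5. Over the members, the fitted log2 ratio of shCreb5 to shScramble ran from -0.89 (CYP1A1) to 1.60 (EEF1A2), with a median of -0.02 for the 51 members against -0.00027 for 12922 genes tested. The quartiles of the members were -0.18 and 0.15, and 29 of the 51 were below 0. With the calf as a block, edgeR called 0 of the 51 members and 0 of all genes (0%) at an adjusted p under 0.05. At an unadjusted p under 0.05 it gave 1144 genes, and 10 members: 4 lower, or 7.84%, where 4.41% of all genes were lower, and 6 higher, or 11.8%, where 4.44% were higher. limma-voom called 0 genes. DESeq2 called 81, or 0.434% of the 18675 genes to which it gave a p-value. Among them were 5 of the 51 members: CYP1A1, HEG1 and PDGFD lower, and AQP5 and BMPER higher. The 18675 genes include low-count genes that DESeq2's own filter can set aside before adjustment. The DESeq2 shares here and below are therefore low ones to set beside the more abundant members.

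In condition AB the members leaned lower with shCreb5. Of 50 members tested, 37 were below 0, or 74%, against 50.6% of 12664 genes, and the median log2 ratio was -0.20 against -0.003 over all genes. The remaining member, without a symbol, averaged 0.231 CPM in condition AB and did not pass the filter on low counts. On the log2(CPM+1) scale, a calf's ratio in condition AB minus its ratio in condition A equals its shCreb5 paired difference minus its shScramble one. The rule used these paired differences, so the lean in condition AB is not independent of how deep the shCreb5 pairs were. Members are not replicates, and whether the lean goes beyond this was not tested. The lean was smaller without calf 4: the median over the members without calf 4 was -0.079, with 28 of 50 below 0, and by calf it was -0.021, -0.091, -0.15 and -0.39 on the log2(CPM+1) scale for calves 1 to 4. Without the calf as a block the median was -0.056. edgeR again called 0 members and 0 genes (0%), with 1078 genes and 8 members at an unadjusted p under 0.05. Of these members 6 were lower (12%, with 4.47% of all genes) and 2 higher (4%, with 4.04% of all genes). limma-voom called 1 gene, not a member, and DESeq2 called 54 genes (0.291%), among them the members HEG1 and PDGFD.

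With the counts of both conditions summed for each calf and shRNA, edgeR called 0 of 51 members and 0 of 13607 genes (0%), with 993 genes and 10 members at an unadjusted p under 0.05, and limma-voom called 0. DESeq2 called 76 genes (0.391%), and its 5 members were HEG1, PDGFD and PAPLN, lower, and AQP5 and BMPER, higher. By direction alone, 5 of 51 members were lower in all 4 calves in condition A, or 9.80%, where 11.9% of all genes were, and 4 were higher in all 4 calves, or 7.84%, where 6.23% were. In condition AB, 10 of 50 members were lower in all 4 calves, or 20.0%, where 9.67% of all genes were, and 3 were higher, or 6%, where 8.54% were. These condition AB counts are likewise not independent of the paired differences that the rule used. Of the 10 members with an unadjusted p under 0.05 in condition A, 9 had a symbol, and all 8 such members in condition AB had one.

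**Figure D4:**
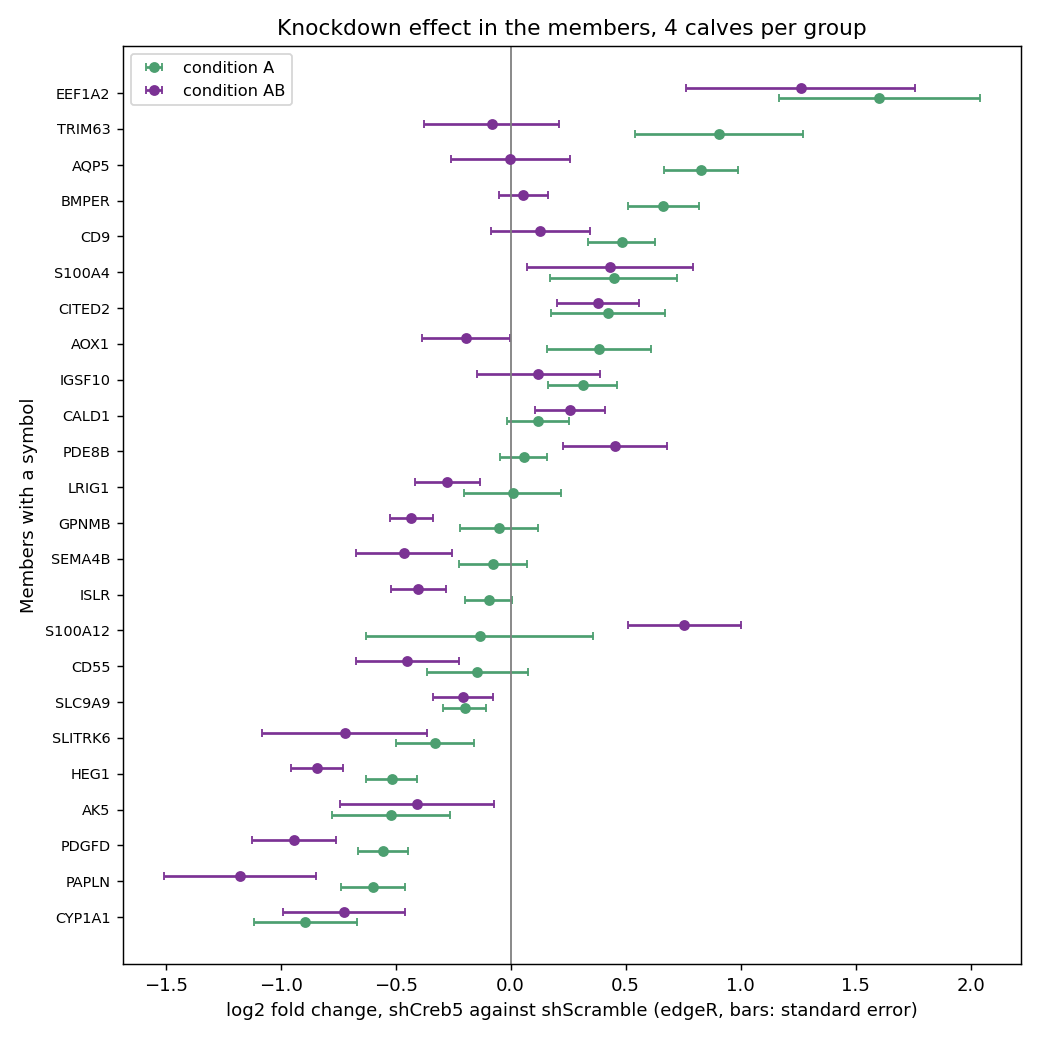
log2 fold change of shCreb5 against shScramble (edgeR with the calf as a block, 4 calves per group) of the 24 members with a symbol, in condition A (green) and condition AB (purple), with bars for the standard error. HEG1, PDGFD, PAPLN and CYP1A1 lie left of 0 and EEF1A2 right of 0 in both conditions, and no member had an adjusted p under 0.05 with edgeR.

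HEG1, whose levels are given above, was lower with shCreb5 in 4 of 4 calves under each condition. Its log2 ratio by calf was -0.37, -0.40, -0.56 and -0.83 in condition A and -0.99, -0.72, -0.74 and -0.78 in condition AB. The fitted log2 fold change was -0.52 ± 0.11 (SE; unadjusted p = 0.00216, edgeR adjusted p = 0.499) in condition A. In condition AB it was -0.84 ± 0.11 (SE; unadjusted p = 1.3e-04, edgeR adjusted p = 0.177), the smallest p of the list. DESeq2 called HEG1 under both conditions, and edgeR without a filter on low counts called it in condition AB. Over 9 alternatives its adjusted p was between 0.0424 and 0.999996 in condition A and between 7.8e-04 and 0.9996 in condition AB, lowest with DESeq2 and highest without the calf as a block.

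PDGFD was likewise lower in 4 of 4 calves under each condition, with log2 ratios of -0.87, -0.63, -0.49 and -0.31 in condition A and -0.80, -0.77, -0.56 and -1.40 in condition AB. The fitted log2 fold change was -0.55 ± 0.11 (SE; unadjusted p = 0.00138, edgeR adjusted p = 0.447) in condition A and -0.94 ± 0.18 (SE; unadjusted p = 0.00121, edgeR adjusted p = 0.451) in condition AB. DESeq2 called PDGFD under both conditions, and over the alternatives its adjusted p was between 0.01496 and 0.999996 in condition A and between 0.0191 and 0.9996 in condition AB. The shRNA groups overlapped under both conditions.

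PAPLN was lower in 4 of 4 calves in condition A, with log2 ratios of -0.54, -0.81, -0.86 and -0.19, and in 3 of 4 calves in condition AB, where calf 1 was the exception (0.11, -1.09, -1.30 and -1.46). The fitted values were -0.60 ± 0.14 (SE; unadjusted p = 0.00368, edgeR adjusted p = 0.509) in condition A and -1.18 ± 0.33 (SE; unadjusted p = 0.00895, edgeR adjusted p = 0.584) in condition AB. CYP1A1 was lower in 4 of 4 calves under each condition, with -0.89 ± 0.22 (SE; unadjusted p = 0.00529, edgeR adjusted p = 0.509) in condition A and -0.72 ± 0.26 (SE; unadjusted p = 0.0284, edgeR adjusted p = 0.584) in condition AB, and its ratio was largest in calf 4. Only DESeq2 called CYP1A1, in condition A.

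AQP5 and BMPER were higher with shCreb5 in condition A in 4 of 4 calves, and not in condition AB. The log2 ratio of AQP5 was 0.25, 0.55, 1.141 and 0.92 in condition A, and the fit gave 0.83 ± 0.16 (SE; unadjusted p = 0.00133, edgeR adjusted p = 0.447). In condition AB the ratios were 0.25, 0.033, -0.24 and -0.15, with 2 calves on each side of 0, at levels of 0.653 to 3.39 CPM. For BMPER, the ratios in condition A were 0.33, 0.21, 0.91 and 1.03, with a fitted value of 0.66 ± 0.16 (SE; unadjusted p = 0.0038, edgeR adjusted p = 0.509). In condition AB they were 0.38, -0.0065, -0.10 and -0.17, with a fitted value of 0.055 ± 0.11 (SE; unadjusted p = 0.617, edgeR adjusted p = 0.857). Over 9 alternatives in condition A the adjusted p was between 0.00837 and 0.999996 for AQP5 and between 0.0268 and 0.999996 for BMPER, and the lowest values came from DESeq2. Whether the knockdown effect differed between the conditions was not tested.

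EEF1A2 had the highest fitted value of the list in condition A, and its calves differed widely. Its log2 ratio was 0.33, 0.71, 2.38 and 2.81 in condition A and 0.0036, 0.15, 2.20 and 2.48 in condition AB, so the ratio was 2.20 or more in calves 3 and 4 and 0.71 or less in calves 1 and 2. The fitted log2 fold change was 1.60 ± 0.44 (SE; unadjusted p = 0.00798, edgeR adjusted p = 0.519) in condition A and 1.26 ± 0.50 (SE; unadjusted p = 0.0383, edgeR adjusted p = 0.584) in condition AB. GPNMB and ISLR were lower in 4 of 4 calves in condition AB but not in condition A, with -0.43 ± 0.094 (SE; unadjusted p = 0.00234, edgeR adjusted p = 0.555) and -0.40 ± 0.12 (SE; unadjusted p = 0.0124, edgeR adjusted p = 0.584), against -0.05 ± 0.17 and -0.10 ± 0.10 in condition A. For ISLR, calf 2 hardly differed in condition AB, with a log2 ratio of -0.0091. S100A12 was higher in 4 of 4 calves in condition AB, with 0.75 ± 0.25 (SE; unadjusted p = 0.0177, edgeR adjusted p = 0.584), and in condition A its ratios ran from 1.40 in calf 1 to -1.85 in calf 4.

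**Figure D5:**
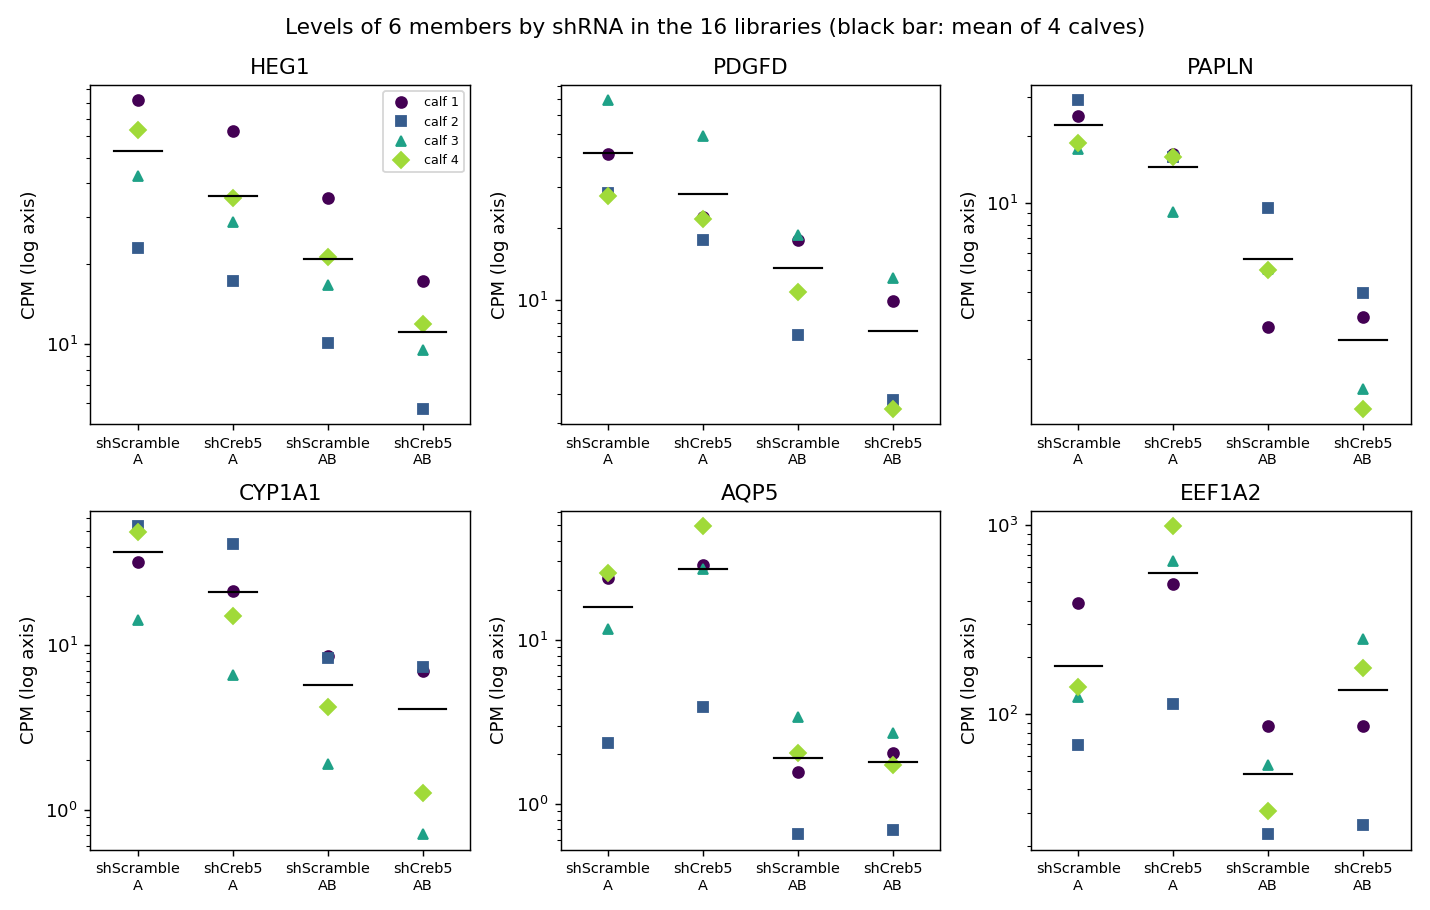
CPM on a log axis of HEG1, PDGFD, PAPLN, CYP1A1, AQP5 and EEF1A2 in the 16 libraries, with 1 symbol for each calf and a black bar for the mean of 4 calves. Each calf's HEG1 and PDGFD point is lower with shCreb5 than with shScramble in both conditions, and the EEF1A2 points of calves 3 and 4 are far higher with shCreb5.

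The TGF-β2 difference can be set side by side for both hairpins. Over the members, the median of the mean differences was -1.69 in shScramble pairs and -1.84 in shCreb5 pairs. Whether the response differed between the hairpins was not tested. In the fits over all genes, which used the contrast that chose the members, edgeR called 51 of 51 members lower in shScramble cells, where it called 9.15% of all genes lower, and 51 of 51 in shCreb5 cells, where it called 14.5% lower, and nothing is read from these counts.

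Symbols were at hand for 103 of the 239 genes of 14 pathway lists, which makes the lists incomplete. The counts of falls in the lists of BMP signalling, lipid genes, growth hormone and IGF axis, receptor tyrosine kinases, Wnt regulators, axon guidance, hypertrophic genes and adipocyte markers each include 1 gene that was left out of the members by name and met the threshold in all 8 pairs. In shScramble cells edgeR called 10.7% of all genes higher with TGF-β2, and 15.9% in shCreb5 cells. Of 9 genes tested in the list of BMP signalling, 4 fell and 2 rose with either hairpin. BMPER and 1 gene left out by name are among the 4, and both met the threshold in all 8 pairs, so their fall restates the choice. The others were the secreted BMP antagonists CHRDL1 and CHRDL2, with log2 fold changes of -1.83 ± 0.21 and -1.11 ± 0.30 (SE; edgeR adjusted p = 0.00121 and 0.0366) in shScramble cells. CHRDL2 met the threshold of the list in 7 of 8 pairs and CHRDL1 in 6. Of 7 complement and acute phase genes, 5 fell in shScramble and 6 in shCreb5 cells and 0 rose, beside the member CD55. C1R, a complement protease, met the threshold in 7 of 8 pairs. The examples from these lists were picked after their values were seen.

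Among 7 control genes known to be induced by TGF-β, 5 rose and 0 fell with either hairpin, for example TGFBI, by 3.93 ± 0.34 on the log2 scale in shScramble cells (SE; edgeR adjusted p = 3.7e-04). Cell cycle genes rose, 5 of 6 in shScramble and 6 of 6 in shCreb5 cells. Of the 8 lipid genes, 3 fell and 1 rose in shScramble cells, and 4 fell and 0 rose in shCreb5 cells. Among those that fell, CD36 met the threshold of the list in 7 of 8 pairs and APOD in 5. Of 7 genes of the growth hormone and IGF axis, 3 fell and 0 rose with either hairpin. Receptor tyrosine kinases fell for 4 and rose for 3 of 13 in shScramble cells, and fell for 4 and rose for 2 of 11 in shCreb5 cells. For 7 Wnt regulators, 2 fell and 4 rose with shScramble, and 1 fell and 3 rose with shCreb5. Axon guidance genes fell for 5 and rose for 2 of 8 with shScramble, and fell for 6 and rose for 2 with shCreb5.

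Chemokine and cytokine genes differed in balance between the hairpins, with 4 falling and 2 rising of 9 in shScramble cells and 3 falling and 4 rising of 9 in shCreb5 cells, and this difference was not tested. Of 4 interferon-response genes, 1 fell with either hairpin. The single hypertrophic gene with an identifier was a gene left out by name, so its fall restates the choice. Matrix protease genes fell for 2 and rose for 2 of 8 with shScramble, and fell for 3 and rose for 3 with shCreb5. Of 8 genes of the cyclic AMP list, 1 fell and 0 rose in shScramble cells, and 1 fell and 2 rose in shCreb5 cells.

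Markers of other cell types were partly at hand (17 of 61 over 8 lists that include both chondrocyte lists). For leukocytes, CD14 and CD68 were the 2 of 8 markers with an identifier, and their summed level was 31.4, 24.0, 41.8 and 25.2 CPM in shScramble cells and 29.3, 23.3, 89.2 and 37.3 CPM in shCreb5 cells of calves 1 to 4 in condition A. In condition AB it was 14.2, 30.6, 31.4 and 22.3 CPM and 12.3, 23.4, 25.6 and 16.4 CPM. CD14 had the higher mean CPM, and neither was at 0 in any library. The log2 fold change of CD14 with TGF-β2 was 0.072 ± 0.20 in shScramble and -0.38 ± 0.17 in shCreb5 cells (SE; edgeR adjusted p = 0.836 and 0.122). That of CD68 was -0.90 ± 0.21 and -1.80 ± 0.30 (SE; edgeR adjusted p = 0.0194 and 0.00423).

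For endothelial cells, the summed level of VWF and TEK, 2 of 8 markers, was 18.2, 10.4, 14.3 and 9.16 CPM in shScramble and 17.3, 13.6, 22.7 and 12.2 CPM in shCreb5 cells in condition A. With TGF-β2 it was 8.80, 8.44, 10.4 and 8.97 CPM and 8.98, 9.33, 7.94 and 6.51 CPM. VWF had the higher mean level, 7.13 CPM, and its log2 fold change with TGF-β2 was -0.89 ± 0.16 in shScramble and -1.60 ± 0.21 in shCreb5 cells (SE; edgeR adjusted p = 0.00773 and 0.00201). The values of TEK were positive, 0.32 ± 0.19 and 0.51 ± 0.20 (SE; edgeR adjusted p = 0.269 and 0.0884), and did not pass the test. Of the 5 superficial zone markers, 2 rose and 3 fell in shScramble cells, and 1 rose and 3 fell in shCreb5 cells. Those that fell include VIT, named above as close to the threshold, and CREB5, the target of the hairpin. Of the 2 chondrocyte markers, 0 passed the test in shScramble cells and 1 rose in shCreb5 cells. With either hairpin, 2 of 2 fibroblast markers and the single smooth muscle marker rose, and the single osteoblast marker did not pass the test. Of 2 adipocyte markers, 1 was a gene left out by name that met the threshold in all 8 pairs, and the other did not pass the test. The part of other cell types in the differences of the members was not tested.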

How the data were processed

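The data were the estimated counts that the authors deposited, 1 column of whole numbers per library, with Ensembl gene identifiers. Per the paper's methods, they came from Salmon with the bovine genome build UMD3.1 and were aggregated by gene. All 16 columns were used and 0 were left out. Libraries with the same calf number were taken as the same animal. This was checked on 13372 genes: after subtracting each group's mean, libraries of the same calf number correlated across genes with a median of 0.670 (24 pairs), and those of different calf numbers with a median of -0.234. Subtracting the group mean by itself pushes correlations between different calves below 0, so the negative value is not separate evidence. Genes are not independent replicates.

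Differences between shRNAs were fitted with edgeR 4.0.16 (quasi-likelihood test, TMM scaling, filterByExpr, calf as a block) in R 4.3.3, with p-values adjusted by Benjamini-Hochberg over all genes tested and a threshold of 0.05. The edgeR test gives no standard error. The SE shown with its fold changes, in text and figures, is the absolute log2 fold change divided by the square root of the test's F statistic. DESeq2 1.42.0, limma-voom (limma 3.58.1), RLE scaling, no filter on low counts, no block, each calf left out and, for the summed counts, an average over 16 libraries were the alternatives. On counts simulated at this design, with known changes and little spread between replicates, edgeR, DESeq2 and limma-voom called most of the changed genes, in the right direction, and some unchanged ones.

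The rule for named members took the 12 with the highest mean CPM, the 12 with the deepest mean difference, the 5 with the smallest p in each knockdown comparison, members of the fixed lists and the 3 genes nearest the threshold on each side. Rule and lists were fixed before the data were examined, but with earlier results of these data known. The symbols came from supplementary gene tables sorted by knockdown significance. No promoter sequences were at hand, so motifs were not counted.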

Additional observations from a re-analysis of the deposited data

Results flagged for a closer look

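The 4 libraries of each group were examined for each of the 51 members, for CREB5 and for the library totals, 212 sets in all. In 12 of them, 1 library's distance to its nearest neighbour was, as a share of the range of the set, beyond Dixon's critical value for 4 samples, and chance gives about 1 in 20. They included IGSF10 in shScramble cells in condition A, where calf 1 was at 288 CPM against 24.5, 37.3 and 60.2 CPM, PAPLN in shCreb5 cells in condition A, where calf 3 was at 9.16 CPM against 16.7, 16.1 and 16.2 CPM, and PDGFD in shCreb5 cells in condition A, where calf 3 was at 49.2 CPM against 22.2, 17.8 and 21.9 CPM. The other 9 were members without a symbol. In shScramble cells they were calf 1 in condition A at 16.5 CPM and, in condition AB, calf 2 at 109.6 CPM and at 34.8 CPM, calf 3 at 4.83 CPM and calf 4 at 2.99 CPM, each for another gene. In shCreb5 cells in condition AB they were calf 1 at 10.5, 6.20 and 9.72 CPM for 3 genes and calf 3 at 20.3 CPM for another.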

How the results depend on the processing

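Membership was 51 genes with column totals and a pseudocount of 1. With TMM or DESeq2 size factors it was 28, with a pseudocount of 5 it was 20, with a pseudocount of 0.5 it was 66 and included all 51, and with 1 calf left out it ranged from 54 (without calf 4) to 91 (without calf 2). Leaving out a calf asks for fewer pairs. For the rest the cause was not tested.

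In condition A, DESeq2 called 81 genes and 5 members where edgeR called 0 and 0 (1144 and 10 at an unadjusted p under 0.05). With 1 calf left out edgeR called 0 to 1 genes, and the members' median log2 ratio ranged from -0.065 (without calf 1) to 0.045 (without calf 2). In condition AB, DESeq2 called 54 genes and 2 members, limma-voom 1 gene, and edgeR without a filter on low counts 17 genes and 1 member, with 0 to 2 genes when 1 calf was left out. For the summed counts, DESeq2 called 76 genes and 5 members, the average over 16 libraries 14 genes and 1 member, and edgeR 0 to 1 genes with 1 calf left out. That average counted the condition A and AB libraries of a calf and shRNA as separate replicates, although these cells were infected together. The members' median with the summed counts was -0.017, ranged from -0.095 to 0.060 with 1 calf left out, and was 0.051 without the calf as a block, so its sign was not stable.

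For TGF-β2, edgeR called 2556 genes in shScramble and 3884 in shCreb5 cells with the calf as a block. Without the block it called 202 and 194, and with 1 calf left out 1366 to 1926 and 1962 to 3829. Of the remaining values for these counts and medians, 84 stayed close to the value reported. For the 5 members with the smallest p in each knockdown comparison, 127 values kept direction and side of the threshold, 13 passed the threshold under an alternative and 0 reversed. The other members were not counted here, and some with fitted values near 0 changed sign between tools, as S100A12 did in condition A. The causes were not tested.

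The 4 calves per group, 1 hairpin and symbols for 24 of 51 members limit what can be said of the knockdown. The lowest mean count of a member was 64.6, but levels under 1 CPM, as for S100A12 in calf 1, rest on few counts.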
